A study of Mus musculus with 2 samples.

Results

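Genes of the extracellular matrix were measured in mouse liver after exposure to acetoaceto-o-toluidide (AAOT), a compound built on o-toluidine, an aromatic amine. The group holds every row of the deposited table whose symbol names a collagen chain, a laminin chain, a matrix metalloproteinase (Mmp), a tissue inhibitor of metalloproteinases (Timp) or an Adamts or Adamts-like protein, which is 88 of 15526 genes. By family these were 35 collagens, 11 laminins, 17 Mmp genes, 3 Timp genes, 16 Adamts genes and 5 Adamts-like genes. The remaining row, Col4a3bp, fits the name pattern but encodes a ceramide transfer protein, so 87 of the 88 are matrix genes. The AAOT pool is 1 library of liver RNA from 3 female NOG-TKm30 mice, 22 weeks old, given 0.3% AAOT for 4 weeks. The control pool is 1 library from 3 such females given 0%. Both pools carry the same transgene, a mutant herpes simplex virus thymidine kinase (clone 30) driven by the mouse transthyretin enhancer and promoter, and C57BL is named beside NOG as the strain background. The route of dosing is not known from the labels. NOG mice lack mature lymphocytes and natural killer cells. Because RNA was mixed before sequencing, no spread between mice can be estimated, and every difference below is between these pools.

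Collagens are trimers of chains wound into a helix. Fibrillar collagens give tensile strength, collagen IV and the laminins build basement membranes, and collagens XV and XVIII sit at the border between basement membrane and stroma. Mmp and Adamts proteases cut matrix proteins and their precursors, and Timp proteins block Mmp activity. In liver the sinusoids lack a continuous basement membrane, stellate cells and portal fibroblasts make most fibrillar collagen, and hepatocytes are a known source of collagen XVIII.

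Among members with at least 50 reads over both pools, 3 had an AAOT level 1.5-fold or more above control. For these 3 only, the 250 bases before an annotated start are printed 5′ to 3′ on the gene's strand. The source is RefSeq on GRCm38.p6, the assembly that mm10 refers to. Capitals mark matches to GGGCGG or CCAAT on either strand. Neither TATAAA nor TGANTCA matched in these windows. Windows were printed only where no GENCODE M21 exon lies in them. The RefSeq spans of Col15a1 and Col27a1 begin upstream of these windows and that of Col5a3 begins inside its window, and gene-level values do not tell which start was used.
Col15a1, chr4:47207762-47208011, plus strand: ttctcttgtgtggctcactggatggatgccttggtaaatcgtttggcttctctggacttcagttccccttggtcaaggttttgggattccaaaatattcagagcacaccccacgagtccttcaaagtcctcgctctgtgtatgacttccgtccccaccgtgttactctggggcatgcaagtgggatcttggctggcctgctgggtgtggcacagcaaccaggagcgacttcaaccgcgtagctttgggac
Col5a3, chr9:20815068-20815317, minus strand: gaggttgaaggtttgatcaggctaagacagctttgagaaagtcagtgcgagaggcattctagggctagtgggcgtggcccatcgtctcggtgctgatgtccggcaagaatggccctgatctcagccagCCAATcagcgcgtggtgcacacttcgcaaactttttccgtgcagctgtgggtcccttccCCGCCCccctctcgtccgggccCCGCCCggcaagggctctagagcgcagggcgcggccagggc
Col27a1, chr4:63215162-63215411, plus strand: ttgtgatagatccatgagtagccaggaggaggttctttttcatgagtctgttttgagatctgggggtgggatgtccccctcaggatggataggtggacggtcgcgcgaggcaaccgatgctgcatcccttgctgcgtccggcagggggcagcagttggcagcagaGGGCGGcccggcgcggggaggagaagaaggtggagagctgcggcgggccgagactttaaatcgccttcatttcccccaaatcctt
Col5a3 had 1 match to CCAAT and 2 to GGGCGG, Col27a1 had 1 to GGGCGG, and Col15a1 had none of the 4 motifs. Of 32851 RefSeq windows of that length, taken without the exon condition, 33.8% hold CCAAT, 32.7% GGGCGG, 12.4% TATAAA and 6.75% TGANTCA on either strand. A match is a run of letters, not a measured binding site.

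Matrix genes summed to nearly the same level in the pools, while single members, most of them low in reads, differed in both directions. Levels are given in CPM, which are reads scaled to library size, on the authors' scale, beside the whole reads that those values contain. Of the 88 members, 52 had at least 50 reads over both pools. Among these, 3 were higher in the AAOT pool by 1.5-fold or more and 7 lower by as much, together 19.2%. Of all 11580 genes with as many reads, 4.14% were higher and 2.82% lower by that size, together 6.95%. The 88 members summed to 2203 CPM in the AAOT pool and 2314 CPM in the control pool, 1.05-fold lower (1.04 to 1.07). Without Col4a3bp the sums were 2127 CPM in the AAOT pool and 2240 CPM in the control pool. Col18a1 alone made up 62.6% of the reads in that smaller set. The higher members were all collagens, Col15a1, Col5a3 and Col27a1. The lower members were the collagens Col12a1, Col1a1 and Col6a1, the laminin Lamb3, the gelatinase Mmp2, and the proteases Adamts6 and Adamts14. For 9 of these 10, 3 higher and 6 lower, the counting interval left out a ratio of 1, and Mmp2 was the exception. Both conditions were met by 3.56% of all genes upward and 2.44% downward, together 5.99%. That interval is the exact 95% interval of a ratio of 2 read counts, and it covers counting error only. At any size, it left out 1 for 15 of the 52 members and for 32.6% of all genes. Below 500 reads, 2 of 34 members were past 1.5-fold upward and 7 downward, together 26.5%, beside 6.78% upward and 4.52% downward, together 11.3%, of all 4822 genes with at least 50 and under 500 reads. With at least 500 reads, 1 of 18 members, Col27a1, was past 1.5-fold and higher, beside 2.25% of all 6758 genes in that class upward and 3.85% in either direction. The median log2 ratio, AAOT over control, was -0.07 over the 52 members and -0.01 over all genes with at least 50 reads. Just inside the limit stood Col6a1, 1.51-fold lower, and just outside stood Lama3, 1.46-fold lower, and Adamtsl1, 1.41-fold higher. Under the scalings without the authors' library factor, Col6a1 was no longer past the limit.

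**Figure D1:**
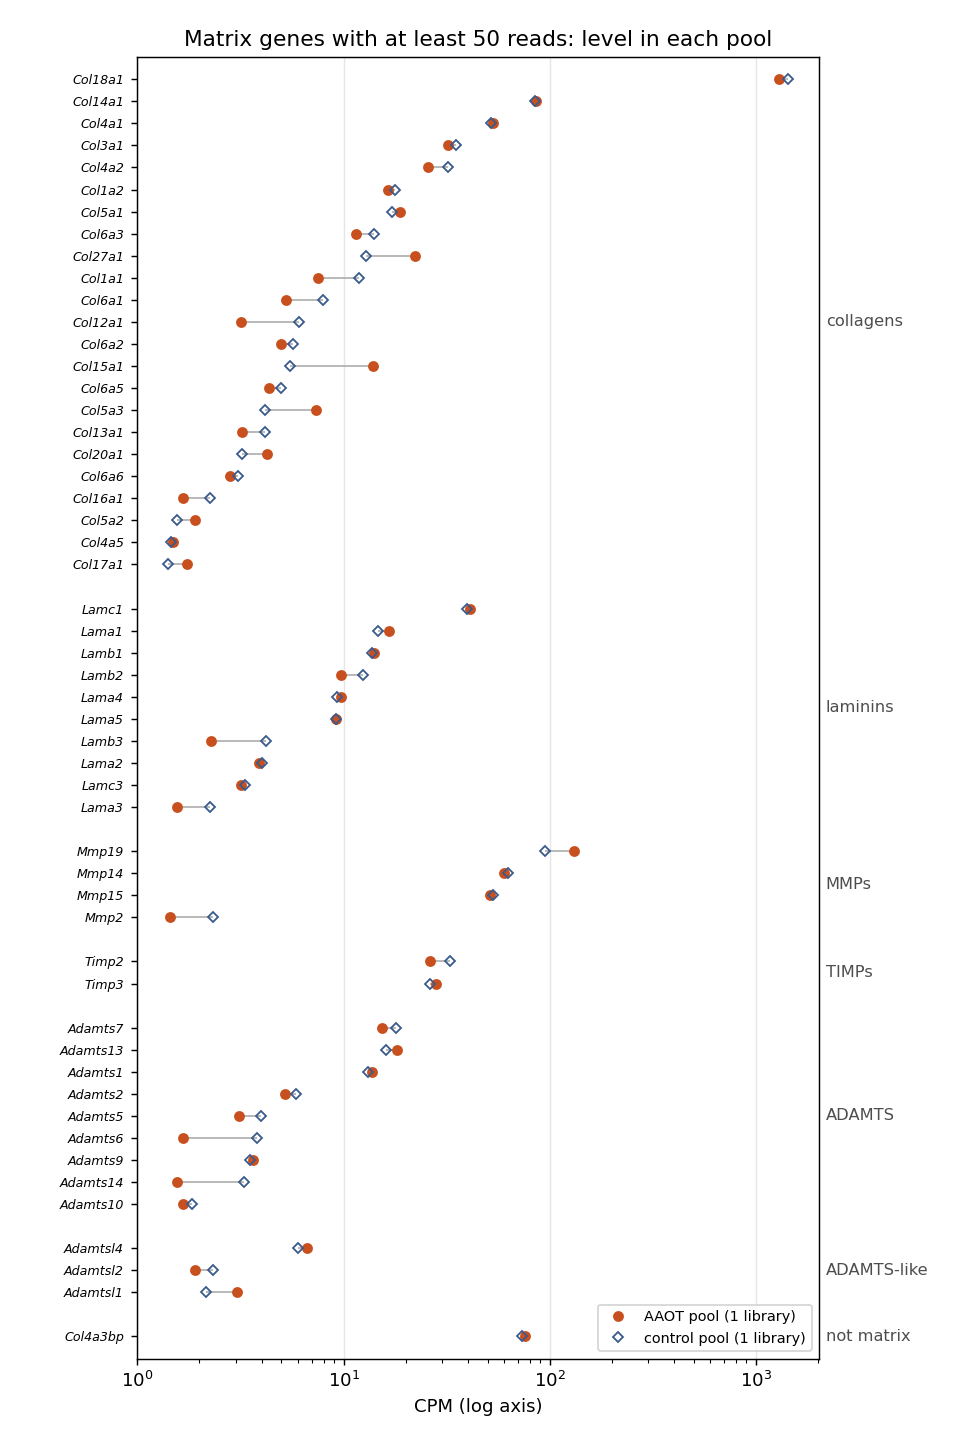
Level of each of the 52 members with at least 50 reads, in CPM on a log axis, in the AAOT pool (filled circles) and the control pool (open diamonds), grouped by family and ordered by control level. Col18a1 lies far to the right of the other members, and most pairs of symbols nearly coincide.

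The libraries held 16528533 reads in the AAOT pool and 18801241 in the control pool, so 1 read is worth 0.0598 CPM in the AAOT pool and 0.0539 CPM in the control pool. The 88 members took 0.223% of reads in the AAOT pool and 0.229% in the control pool. The hepatocyte genes Alb and Hnf4a were at 50830 CPM and 771 CPM in the AAOT pool, against 57688 CPM and 784 CPM in the control pool. Of the 6 hepatocyte markers Apoa1 alone was past 1.5-fold, at 1.63-fold lower. Of all genes with at least 50 reads, 6.95% were past that size in either direction.

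Collagen RNA was dominated by Col18a1, the collagen XVIII chain whose C-terminal fragment is endostatin (chromosome 10, 77052178 to 77166530). Col18a1 was at 1298 CPM (21725 reads) in the AAOT pool and 1431 CPM (26568 reads) in the control pool, 1.10-fold lower (1.08 to 1.12). It made up 80.3% of all collagen reads. Per kilobase of its longest coding transcript it stood at 232 CPM in the AAOT pool and 256 CPM in the control pool, the highest of all members in both pools. The 35 collagens summed to 1634 CPM in the AAOT pool and 1766 CPM in the control pool, 1.08-fold lower (1.06 to 1.10). Without Col18a1 the other 34 summed to 336 CPM in the AAOT pool and 335 CPM in the control pool, a ratio of 1.003 (0.967 to 1.04), so the lower sum was that of Col18a1.

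Col15a1 had the highest ratio of the 52 members. It encodes the chain of collagen XV, the close relative of collagen XVIII, and lies on chromosome 4 from 47207655 to 47313167. Col15a1 was at 13.9 CPM (232 reads) in the AAOT pool and 5.49 CPM (102 reads) in the control pool, 2.52-fold higher (1.99 to 3.22). The relatives thus differed in opposite directions, and the ratio of Col15a1 was 2.78 times that of Col18a1 (2.19 to 3.55). Even so, Col15a1 per kilobase was 2.68 CPM in the AAOT pool and 1.06 CPM in the control pool, far under Col18a1.

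Collagen IV, the network-forming collagen of basement membranes, was nearly level for its α1 chain and lower for its α2 chain. Col4a1 was at 53.3 CPM (892 reads) in the AAOT pool and 52.2 CPM (969 reads) in the control pool, 1.02-fold (0.932 to 1.12). Col4a2, which lies head to head with Col4a1 on chromosome 8, was at 25.6 CPM (429 reads) in the AAOT pool and 31.9 CPM (593 reads) in the control pool, a ratio of 0.803 (0.707 to 0.911). The ratio of Col4a2 was 0.786 times that of Col4a1 (0.672 to 0.919), so the neighbouring chains differed by more than counting error. Col4a5, at 25 reads in the AAOT pool and 27 in the control pool, had a ratio of 1.03 (0.572 to 1.84).

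Among fibrillar collagens 2 of 7 members with at least 50 reads were at least 1.5-fold higher and 1 was at least 1.5-fold lower. Of all genes with as many reads, 4.14% were higher and 2.82% lower by that size. Col27a1 (chromosome 4, 63214009 to 63334991), a fibrillar collagen best known from cartilage, was at 22.2 CPM (372 reads) in the AAOT pool and 12.8 CPM (238 reads) in the control pool. That is 1.73-fold higher (1.47 to 2.05). Col5a3 (chromosome 9, 20770050 to 20815117), the α3 chain of collagen V, was at 7.35 CPM (123 reads) in the AAOT pool and 4.15 CPM (77 reads) in the control pool, 1.77-fold higher (1.32 to 2.39). The other collagen V chains differed less, with Col5a1 at 18.8 CPM in the AAOT pool and 17.2 CPM in the control pool, 1.09-fold (0.929 to 1.28). Col5a2 had 32 reads in the AAOT pool and 29 in the control pool, 1.22-fold (0.717 to 2.10). The ratio of Col5a3 was 1.63 times that of Col5a1 (1.16 to 2.29).

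Collagen I, the main collagen of scar tissue, was lower for Col1a1 and nearly level for Col1a2. Col1a1 (chromosome 11, 94936224 to 94953042) was at 7.53 CPM (126 reads) in the AAOT pool and 11.8 CPM (220 reads) in the control pool, 1.57-fold lower (1.26 to 1.97). Col1a2, its partner chain, was at 16.4 CPM (275 reads) in the AAOT pool and 17.8 CPM (331 reads) in the control pool, 1.08-fold lower (0.922 to 1.28). The ratio of Col1a1 was 0.689 times that of Col1a2 (0.520 to 0.912). Per kilobase Col1a1 stood at 1.27 CPM in the AAOT pool and 1.998 CPM in the control pool, and Col1a2 at 3.07 CPM in the AAOT pool and 3.33 CPM in the control pool, so Col1a1 was under Col1a2 in both pools. Col3a1, which co-assembles with collagen I in fibrils, was at 32.1 CPM (538 reads) in the AAOT pool and 35.2 CPM (653 reads) in the control pool, 1.09-fold lower (0.974 to 1.23).

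All 5 collagen VI genes, which form beaded filaments around cells, had ratios below 1 under each scaling tried, beside 52.4% of all genes with at least 50 reads, and 3 of the 5 intervals included 1. Their sum was 28.9 CPM in the AAOT pool and 35.7 CPM in the control pool, 1.23-fold lower (1.10 to 1.39). Col6a1 was at 5.26 CPM (88 reads) in the AAOT pool and 7.92 CPM (147 reads) in the control pool, 1.51-fold lower (1.15 to 1.98), and Col6a3 at 11.5 CPM in the AAOT pool and 14.1 CPM in the control pool, 1.22-fold lower (1.01 to 1.48). Col6a2, Col6a5 and Col6a6 were 1.15-fold, 1.14-fold and 1.09-fold lower, and theirs were the intervals that included 1. The ratios of Col6a1 and Col6a2 did not differ beyond counting error, at 0.765 times (0.508 to 1.15). Fibril-associated collagens differed among themselves. Col14a1, which decorates fibrils in fibroblast-rich stroma, was at 85.5 CPM (1430 reads) in the AAOT pool and 84.6 CPM (1571 reads) in the control pool, 1.01-fold (0.940 to 1.09). Col12a1 (chromosome 9, 79598987 to 79721141), a relative that also binds collagen I fibrils, was at 3.17 CPM (53 reads) in the AAOT pool and 6.09 CPM (113 reads) in the control pool, 1.92-fold lower (1.37 to 2.72). The other 4 collagens with at least 50 reads, Col13a1, Col16a1, Col17a1 and Col20a1, had 28 to 71 reads in the AAOT pool and 26 to 77 in the control pool, and each interval included 1.

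**Figure D2:**
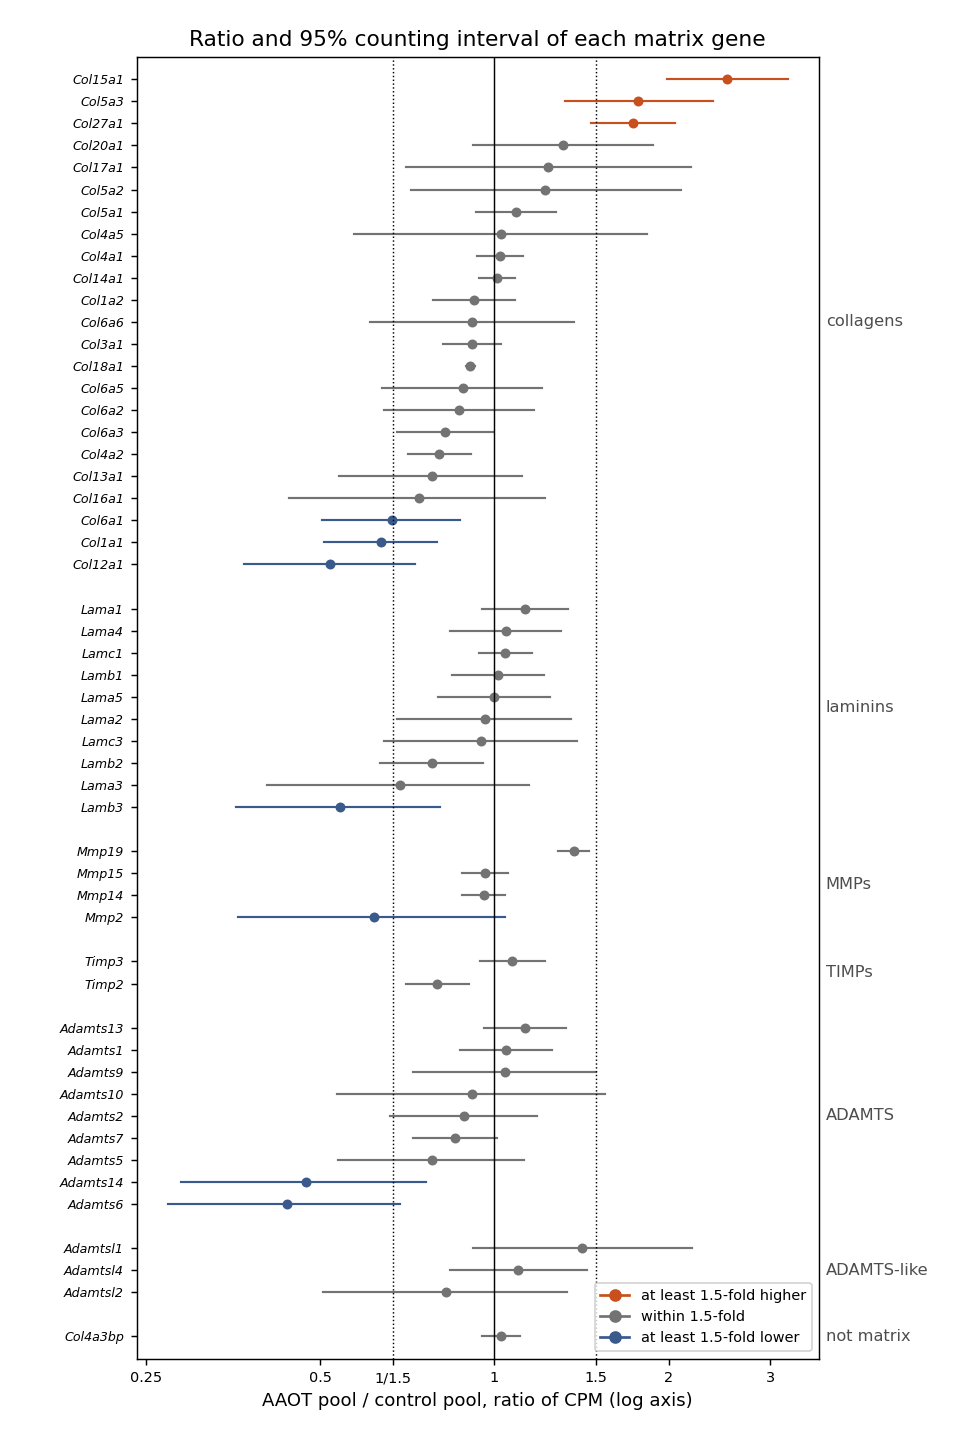
Ratio of CPM in the AAOT pool to that in the control pool (log axis) with its 95% counting interval, for the 52 members with at least 50 reads, grouped by family. Dotted lines mark 1.5-fold in either direction, with 3 collagens at or beyond the upper line and 7 members at or beyond the lower one.

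Laminins are the cross-shaped trimers of basement membranes. Of 10 chains with at least 50 reads, 0 were higher by 1.5-fold or more and 1, Lamb3, was lower by as much. The shares over all genes with as many reads were 4.14% and 2.82%. The sum over all 11 laminin chains was 112 CPM in the AAOT pool and 113 CPM in the control pool, a ratio of 0.989 (0.929 to 1.05). Lamc1, the γ1 chain found in most laminins, was at 41.2 CPM (690 reads) in the AAOT pool and 39.5 CPM (734 reads) in the control pool, 1.04-fold (0.939 to 1.16). The α chains Lama1, Lama4, Lama5 and Lama2 had ratios of 1.13, 1.05, 0.999 and 0.962, and that of Lama5 passed above 1 under another scaling. The β chains differed most. Lamb1 was at 13.98 CPM in the AAOT pool and 13.8 CPM in the control pool (0.846 to 1.22 as a ratio), and Lamb2 at 9.74 CPM in the AAOT pool and 12.5 CPM in the control pool, 1.28-fold lower (1.05 to 1.58). Lamb3 (chromosome 1, 193294353 to 193343878), the β3 chain of an epithelial laminin, was at 2.27 CPM (38 reads) in the AAOT pool and 4.20 CPM (78 reads) in the control pool, 1.85-fold lower (1.24 to 2.80). Lama3, a chain that Lamb3 assembles with, had 26 reads in the AAOT pool and 42 in the control pool, 1.46-fold lower (0.872 to 2.47). The ratio of Lamb3 was 0.533 times that of Lamb1 (0.338 to 0.831).

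**Figure D3:**
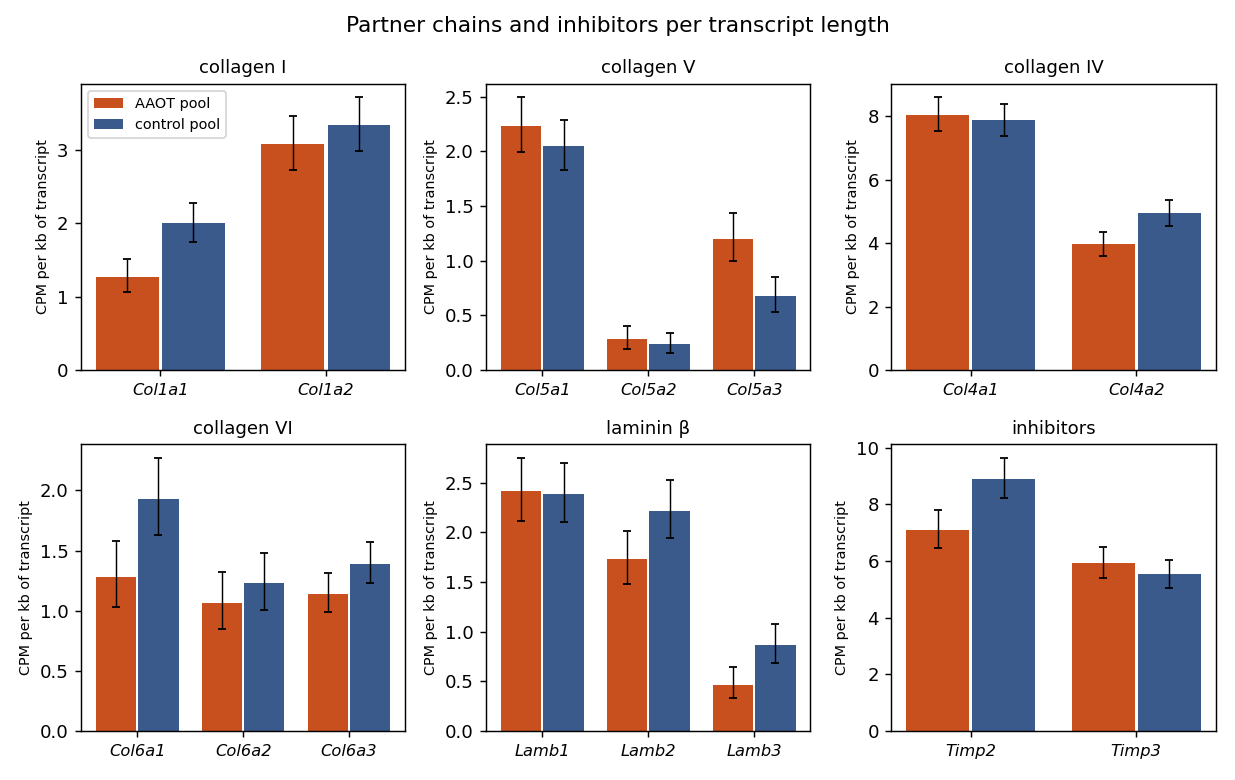
Level per kilobase of the longest coding transcript, in CPM per kb, of partner chains and of the inhibitors Timp2 and Timp3, in the AAOT pool (left bars) and the control pool (right bars). Error bars are exact 95% Poisson intervals of the reads and cover counting error only. Col1a1, Col4a2 and Timp2 are lower in the AAOT pool beside a nearly level partner, and Col5a3 is higher beside a nearly level Col5a1.

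Of 17 Mmp genes only Mmp19, Mmp14, Mmp15 and Mmp2 had at least 50 reads. Mmp19 (chromosome 10, 128790910 to 128800827), a secreted protease that cuts basement membrane proteins, had the most reads, at 131 CPM (2185 reads) in the AAOT pool and 95.3 CPM (1770 reads) in the control pool. That is 1.37-fold higher (1.29 to 1.46), within the 1.5-fold limit, and per kilobase 38.4 CPM in the AAOT pool and 28.0 CPM in the control pool, next to Col18a1 in both pools. In GENCODE, 28.3% of its exon bases also lie in exons of genes on the opposite strand, and the sources do not say whether counting used strand. Tmem198b, the only such gene with a value, had 50 reads in the AAOT pool and 61 in the control pool. Mmp14, the membrane-bound activator of Mmp2, was at 60.0 CPM (1004 reads) in the AAOT pool and 62.6 CPM (1162 reads) in the control pool, 1.04-fold lower (0.958 to 1.14). Mmp15, another membrane-type Mmp, was at 51.2 CPM (856 reads) in the AAOT pool and 53.1 CPM (986 reads) in the control pool, 1.04-fold lower (0.946 to 1.14). Mmp2, the gelatinase of stellate cells and fibroblasts, had 24 reads in the AAOT pool and 43 in the control pool, 1.61-fold lower with an interval of 0.958 to 2.78 that includes 1. The Mmp genes summed to 247 CPM in the AAOT pool and 218 CPM in the control pool, 1.14-fold higher (1.09 to 1.19), but without Mmp19 the ratio was 0.954 (0.898 to 1.01).

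Timp genes were represented by Timp2 and Timp3. Timp2, which also takes part in Mmp2 activation, was at 26.3 CPM (440 reads) in the AAOT pool and 33.0 CPM (613 reads) in the control pool, 1.26-fold lower (1.11 to 1.42). Timp3, the inhibitor that binds to the matrix, was at 28.0 CPM (469 reads) in the AAOT pool and 26.1 CPM (485 reads) in the control pool, 1.07-fold (0.943 to 1.22). The ratio of Timp2 was 0.742 times that of Timp3 (0.620 to 0.889). Timp3 lies in an intron of Syn3 on the other strand and shares 21.3% of its exon bases with it, and Syn3 had 155 reads in the AAOT pool and 151 in the control pool. Timp1, the inhibitor typical of active liver fibrosis, had 1 read in the AAOT pool and 2 in the control pool.

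Of 16 Adamts genes 9 had at least 50 reads, and 2 of them were at least 1.5-fold lower in the AAOT pool. Among all genes with at least 50 reads 2.82% were lower by that size, and 4.52% of those under 500 reads. Adamts13 (chromosome 2, 26973361 to 27009625), the protease that trims von Willebrand factor and is made by stellate cells, was at 18.2 CPM (304 reads) in the AAOT pool and 16.1 CPM (299 reads) in the control pool, 1.13-fold (0.959 to 1.33). Adamts7, which cuts cartilage oligomeric matrix protein, was at 15.4 CPM in the AAOT pool and 18.0 CPM in the control pool, 1.17-fold lower (0.992 to 1.38). Adamts1, a protease of proteoglycans, was at 13.8 CPM in the AAOT pool and 13.2 CPM in the control pool (0.870 to 1.26 as a ratio).

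The lower Adamts genes were low in reads. Adamts6 (chromosome 13, 104286518 to 104496695) had 28 reads (1.67 CPM) in the AAOT pool and 71 reads (3.82 CPM) in the control pool, 2.29-fold lower (1.46 to 3.68). Adamts14 (chromosome 10, 61197112 to 61273419), which removes the N-terminal propeptide of procollagens, had 26 reads (1.55 CPM) in the AAOT pool and 61 reads (3.28 CPM) in the control pool, 2.11-fold lower (1.32 to 3.49). Its relative Adamts2 had 87 reads in the AAOT pool and 109 in the control pool, 1.13-fold lower (0.844 to 1.51), and the ratio of Adamts14 was 0.534 times that of Adamts2 (0.298 to 0.942). The intervals of Adamts5, Adamts9 and Adamts10 included 1, as did those of the Adamts-like genes Adamtsl4, Adamtsl1 and Adamtsl2, which lack a protease domain. Adamtsl4 had 111 reads in the AAOT pool and 112 in the control pool.

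The other 36 members had 2 to 39 reads over both pools and summed to 258 reads in the AAOT pool and 283 in the control pool, a ratio of 1.01 (0.851 to 1.20). In 2 of the 36 the counting interval left out 1. The share of all genes under 50 reads that did so was not computed, so this count has nothing to be set beside. Col10a1, the collagen of hypertrophic cartilage, had 22 reads in the AAOT pool and 9 in the control pool, 2.71-fold higher (1.20 to 6.69). Col24a1, a fibrillar collagen, had 14 reads in the AAOT pool and 5 reads in the control pool, 3.11-fold higher with a wide interval of 1.06 to 11.02. Proteases of inflammation and fibrosis were near the limit of detection. Mmp9 had 2 reads in the AAOT pool and 4 in the control pool, Mmp12 had 5 in AAOT and 2 in control, Mmp13 had 5 in AAOT and 4 in control, and Adamts4 had 3 in AAOT and 5 in control. Mmp16, Mmp25 and Col28a1 had 0 reads in the AAOT pool and 2 in the control pool, where 0 reads allow up to 0.179 CPM and no fold is given. Another 19 coding genes whose RefSeq symbols match the pattern have no row under those symbols, so no value is given for them.

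Genes that modify, secrete and crosslink collagen were mixed, with 2 of 22 at least 1.5-fold higher and 0 at least 1.5-fold lower, together 9.09%. Of all genes with at least 50 reads, 4.14% were higher and 2.82% lower by that size, together 6.95%. The median log2 ratio of this list was -0.02, which passed above 0 under the scalings without the library factor. P4ha1, a subunit of the prolyl hydroxylase that stabilises the helix, was at 18.0 CPM (301 reads) in the AAOT pool and 11.3 CPM (209 reads) in the control pool, 1.60-fold higher (1.34 to 1.92). Fkbp14, a prolyl isomerase of the endoplasmic reticulum, had 74 reads in the AAOT pool and 47 reads in the control pool, 1.75-fold higher (1.20 to 2.57). Members with most reads differed by small ratios, with P4hb at 1.06-fold lower (1.04 to 1.08) and Bmp1, the procollagen C-proteinase, at 1.12-fold lower (1.06 to 1.18). Mia3, which loads collagen into transport vesicles, was 1.08-fold higher (1.04 to 1.12). The crosslinking enzyme Lox had 5 reads in the AAOT pool and 3 in the control pool, and Loxl2 had 91 in AAOT and 117 in control.

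Signals that induce matrix genes differed in both directions. Skil, a repressor induced by TGF-beta, was at 21.9 CPM in the AAOT pool and 40.9 CPM in the control pool, 1.87-fold lower (1.65 to 2.12). Ctgf, a growth factor that promotes matrix production, went the other way, at 10.4 CPM (174 reads) in the AAOT pool and 5.65 CPM (105 reads) in the control pool, 1.84-fold higher (1.44 to 2.37). Among the members with most reads, the co-receptor Eng was at 91.5 CPM in the AAOT pool and 89.5 CPM in the control pool, and the repressor Ski at 78.5 CPM in the AAOT pool and 102 CPM in the control pool. Smad7, the inhibitory Smad, was at 42.8 CPM in the AAOT pool and 62.3 CPM in the control pool, 1.45-fold lower (1.32 to 1.60). Tgfb1 itself had 202 reads in the AAOT pool and 220 in the control pool. Of the 21 members with at least 50 reads, 1 was at least 1.5-fold higher and 2 at least 1.5-fold lower, together 14.3%. Among all genes with as many reads, 4.14% were higher and 2.82% lower by that size, together 6.95%. The list had a median log2 ratio of -0.11.

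Non-collagenous matrix proteins were lower by small ratios in most cases, with 21 of 29 below 1, which ranged from 19 to 22 over the scalings, and a median log2 ratio of -0.15. Of all 11580 genes with at least 50 reads, 52.4% were below 1. Fn1, the fibronectin that hepatocytes secrete into plasma, was at 3549 CPM in the AAOT pool and 4339 CPM in the control pool, 1.22-fold lower (1.21 to 1.24). Vtn, vitronectin, was 1.24-fold lower (1.22 to 1.26). Npnt, a ligand of an α8 integrin, was 1.55-fold lower (1.17 to 2.07), at 79 reads in the AAOT pool and 136 reads in the control pool, and Dpt, dermatopontin, was 1.55-fold lower (0.964 to 2.55), at 29 reads in the AAOT pool and 50 reads in the control pool. Smoc1, a calcium-binding matrix protein, was at 174 CPM in the AAOT pool and 136 CPM in the control pool, 1.28-fold higher (1.21 to 1.35).

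**Figure D4:**
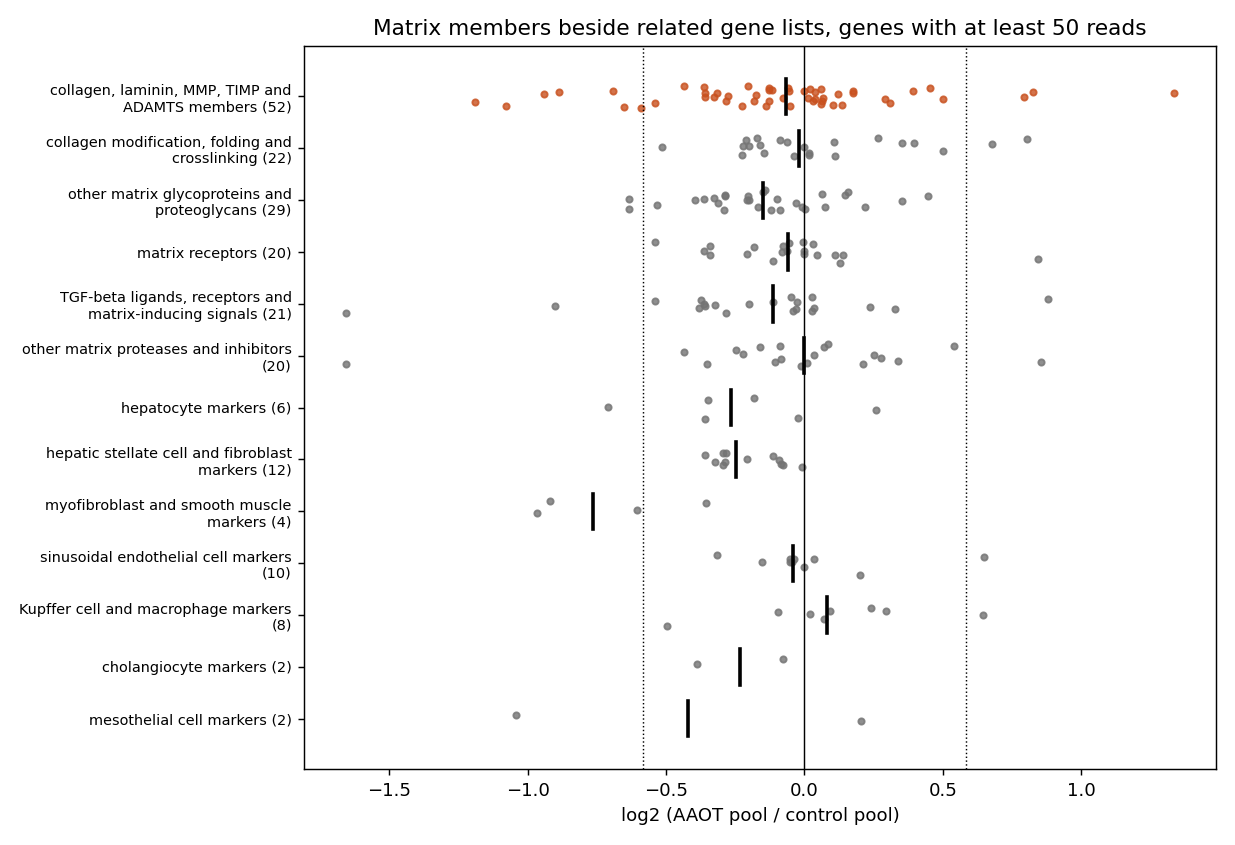
Log2 ratio, AAOT pool over control pool, for each gene with at least 50 reads, for the 52 members (top row) and for lists of related genes and cell type markers, with the number of genes in brackets. Thick bars are medians and dotted lines mark 1.5-fold. The myofibroblast and smooth muscle markers have the lowest median, at -0.76, and the members a median of -0.07.

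Markers of matrix-making cells were lower in sum in the AAOT pool, as were those of hepatocytes. In bulk RNA, fewer cells of a type and less RNA per cell cannot be told apart. All 12 stellate cell and fibroblast markers were below 1 in the AAOT pool, with log2 ratios of -0.36 to -0.01, and 11 of 12 under the scalings without the library factor. Of all genes with at least 50 reads, 52.4% were below 1. The median log2 ratio of these 12 markers was -0.25. Their sum was 655 CPM in the AAOT pool and 749 CPM in the control pool, 1.14-fold lower (1.12 to 1.17), with Lrat, the retinol-esterifying enzyme of stellate cells, at 25.5 CPM in the AAOT pool and 31.2 CPM in the control pool. The 6 hepatocyte markers had a median log2 ratio of -0.27, with 5 of 6 below 1, or 4 of 6 under another scaling. Their sum was 68329 CPM in the AAOT pool and 78331 CPM in the control pool, 1.15-fold lower (1.14 to 1.15), with 74.0% of its reads from Alb. Among them Cps1 was 1.20-fold higher (1.19 to 1.21) and Hnf4a had a ratio of 0.983 (0.960 to 1.01). All 4 myofibroblast and smooth muscle markers with at least 50 reads were lower, and the sum over all 6 was 11.2 CPM in the AAOT pool and 17.8 CPM in the control pool, 1.59-fold lower (1.33 to 1.91). Dcn and Ecm1 of the stellate cell list also stand among the matrix proteins above. Acta2, the smooth muscle actin of activated stellate cells and vessel walls, had 48 reads in the AAOT pool and 104 in the control pool, 1.95-fold lower (1.37 to 2.81). The part of all these cells in the lower values of Col1a1, Col12a1, Col6a1, Mmp2, Adamts6 and Adamts14 was not tested.

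Markers of other cell types that the tissue could hold differed in both directions. Sinusoidal endothelial markers, 10 of 10 with at least 50 reads, summed to 658 CPM in the AAOT pool and 652 CPM in the control pool, 1.01-fold (0.983 to 1.03). Lyve1 among them was 1.57-fold higher (1.246 to 1.98). Of the 10, 7 were below 1, or as few as 4 under another scaling, beside 52.4% of all genes with at least 50 reads. Pecam1 was 1.24-fold lower (1.06 to 1.46) and Fcgr2b 1.11-fold lower (1.01 to 1.22). Kupffer cell markers summed to 324 CPM in the AAOT pool and 302 CPM in the control pool, 1.07-fold higher (1.03 to 1.11), with Marco 1.57-fold higher (1.19 to 2.06). Of these 8 markers 6 were above 1 and 2 below, beside 5515 of all 11580 genes with at least 50 reads above 1. Timd4 was 1.41-fold lower (0.988 to 2.03) and Cd68 1.07-fold lower (0.836 to 1.37). Cholangiocyte markers summed to 35.8 CPM in the AAOT pool and 45.1 CPM in the control pool, 1.26-fold lower (1.13 to 1.40). Most of that sum was Spp1, with 440 reads in the AAOT pool and 639 in the control pool, 1.31-fold lower (1.16 to 1.48). The defining Krt19 and Epcam had 13 and 13 reads in the AAOT pool and 22 and 21 in the control pool. Mesothelial markers had 82 reads in the AAOT pool and 132 in the control pool, 1.45-fold lower in sum (1.09 to 1.94). Upk3b was 2.06-fold lower (1.21 to 3.62). Gpm6a, the other mesothelial marker with at least 50 reads, was 1.15-fold higher (0.654 to 2.03). Neutrophil markers had 17 reads in the AAOT pool and 14 reads in the control pool. The part of these cells in Col15a1, Lamb3 and the other members was not tested.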

How the data were processed

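Liver RNA was purified on columns, depleted of ribosomal RNA and made into directional libraries from 200 ng, per the labels' protocols. Values are CPM in 1 table that the authors deposited, with a column per library. Trimmomatic 0.38, Bowtie2, RSEM, edgeR and mm10 are named in the submitters' processing notes. The annotation and strand setting are not given in the sources used here. Whole reads were recovered, since 100% of the deposited CPM were multiples of a single step in their column (relative tolerance 1e-06). Genes with fewer than 2 reads over both pools have no row.

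With 1 library per group no count model can be fitted and no p-value was computed. Ratios are AAOT pool over control pool of deposited CPM with no added constant. Intervals are exact (Clopper-Pearson, conditional on the sum of reads, 95%), or exact conditional intervals of an odds ratio for 2 genes, and treat reads as independent molecules. Genes counted as past the limit had at least 50 reads over both pools and a ratio of 1.5-fold. Members, lists and limits were chosen with earlier results of these data known. Named are members past the limit, the most abundant and extreme of each family, and list genes past the limit or with most reads. All 88 members matched RefSeq on GRCm38, 87 by symbol and 1 by synonym. At least 90% of the 50-base stretches of each member's longest coding GENCODE M21 transcript occur in no other gene. Some genes that the naming rule takes are left out of the text. Steps were tested on simulated reads. Alternatives were 5 scalings, added constants, read floors and limits. Tools were R 4.3.3 with edgeR 4.0.16 (trimmed mean scaling only), and Python 3.11.15 with scipy 1.17.1, numpy 2.4.6, matplotlib 3.10.9 and pandas 2.3.3.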

Additional observations from a re-analysis of the deposited data

How the results depend on the processing

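Scaling moved the median log2 ratio of all genes by at most 0.05, and the counts of members past 1.5-fold stayed at 3 higher and 6 or 7 lower. An added constant of 5 CPM left 2 higher and 0 lower, since the lower members are under 12 CPM. A floor of 100 reads gave 3 higher and 4 lower, a mean of 10 CPM gave 1 and 0, and no floor gave 8 and 17. A laxer size limit gave 6 higher and 13 lower, and a 2-fold limit 1 and 2. Shares of all genes past the limit were not computed under the other scalings, the constant, these floors or these limits. Whether the members' counts there are unusual therefore cannot be told. Requiring the interval to leave out 1, chosen after seeing the data, gave 3 and 6. The collagen sum, 0.926 as a ratio, was 0.949 with library totals as the only scale and 0.957 without Rn45s, and 1.003 without Col18a1. Without Mmp19 the Mmp sum was 0.954 and without Timp2 the Timp sum was 1.07. The laminin median, -0.03, was above 0 under the scalings without the library factor, at up to 0.02. Depth limits members under 50 reads, and no replicate library bounds the differences between mice. No paired analysis was possible because each group is 1 pooled library.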

Other observations

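Matrix receptors had a median log2 ratio of -0.06 over 20 genes with at least 50 reads. Of these, 14 were below 1, or as few as 11 under another scaling, beside 52.4% of all genes with as many reads. In the AAOT pool 1 was higher by 1.5-fold or more and 0 were lower by as much, beside 4.14% and 2.82% of all genes. The higher gene was Itga6, an integrin chain that binds laminins, at 9.56 CPM (160 reads) in the AAOT pool and 5.33 CPM (99 reads) in the control pool, 1.79-fold higher (1.39 to 2.33). Its partner chain Itgb4 had 18 reads in the AAOT pool and 24 reads in the control pool, and Itgb1 had 3226 reads in the AAOT pool and 3586 reads in the control pool. The collagen-binding Itga1 was 1.16-fold lower (1.06 to 1.27). Sdc4, a heparan sulfate proteoglycan and the receptor with most reads, was at 545 CPM in the AAOT pool and 690 CPM in the control pool, 1.27-fold lower (1.23 to 1.30).

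Other proteases and inhibitors of the matrix had a median log2 ratio of -0.003 over 20 genes, which was above 0 under the scalings without the library factor. Of the 20, 1 was at least 1.5-fold higher and 1 lower, beside 4.14% and 2.82% of all genes with at least 50 reads. The higher one was Plau, urokinase, with 44 reads in the AAOT pool and 27 in the control pool, 1.81-fold higher (1.10 to 3.04). Plg, the plasminogen that urokinase activates, was at 2926 CPM in the AAOT pool and 3110 CPM in the control pool, 1.06-fold lower (1.05 to 1.08), and the broad protease inhibitor Pzp was 1.17-fold lower (1.16 to 1.18). Ctsl, a lysosomal protease, was at 391 CPM in the AAOT pool and 338 CPM in the control pool, 1.16-fold higher (1.12 to 1.20).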
